A study of Mus musculus with 9 samples.

Results

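The adenines (A) and cytosines (C) described here were strongly reactive to dimethyl sulfate in every sample of a probing study of mouse 5′ untranslated regions. They were chosen by their measured values: an A or C counted when its reactivity was 12000 CPM or more in all 9 samples. CPM, on the deposited scale, is mutation counts per 1000000 counts of the base's own amplicon, the stretch of cDNA copied by one primer pair. Of 16187 A and C rows, each 1 nucleotide in 1 amplicon, 502 met this rule (3.10%), and these are called the highly reactive nucleotides below. They occupied 463 of 13550 distinct transcript positions, because overlapping amplicons read some positions more than once. They lay in 136 of 161 amplicons and in 64 of 69 transcripts. Since the rule used the level in all 9 samples, levels are given as a description.

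All samples were E14TG2a mouse embryonic stem cells, a line derived from the inner cell mass of the blastocyst, and each of the 3 conditions had 3 samples that the labels call independent. The ATP-depleted cells spent 10 min in glucose-free medium containing 2-deoxyglucose at 10 mM and sodium azide at 10 mM, which block glycolysis and respiration, and both compounds stayed in the later media. The untreated cells were handled alike without depletion, and both in-cell groups were then buffered with bicine (250 mM) and exposed at 37 °C to DMS, at 1.6%, for 6 min. The last group was RNA refolded in vitro, whose exposure to DMS the labels do not describe. The study chose 100 highly conserved 5′ untranslated regions and copied them with 380 synthesised primer pairs for amplicons of 250 nt. A DMS-free control was not analysed here, and the mutation background of a nucleotide was therefore not measured. The table holds no expression levels, so the labelled cell type could not be checked against marker genes.

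DMS methylates the base-pairing face of A and C when that face is free. In mutational profiling, reverse transcriptase reads through the methylated base and leaves a mutation in the cDNA, so a high mutation count marks a base that was accessible to the reagent. G and U carry no such site that reacts well under the usual conditions, but in these data only G was low. Where a single other base followed, the median level was 947 CPM for G and 4303 for U, beside 4976 for C and 8921 for A. At most G is a rough guide to background here. In cells a base can be shielded by pairing, by tertiary contacts or by bound protein, whereas refolded RNA has no protein. Leaders with stable helices can slow scanning ribosomes, and helicases that use ATP help to open them.

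The sequence around the most reactive nucleotides is given first, since base and neighbours set these nucleotides apart from other A and C. In each line the capitals mark highly reactive nucleotides of that amplicon, and the named one is the centre of 21 bases. Sequences come from the deposited table, in which U is written as T, and a number such as 666 is the position in the transcript as that table counts it. The genome build is not given in the sources used here, and positions are not placed on chromosomes. Gene symbols were matched through RefSeq for 68 of 69 transcripts. The first 8 are those whose lowest value over the 9 samples was highest.
Brd2 C666: ggggagatggCgcctacacgc
Mapk6 A602: gtctgaggggAactcagcggg
Kmt2e A102: tgcgttcgggAgcggcagCag
Hipk3 A406: ggccgccgagAggggctgAgc
Brd2 C1650: ctgggcccggCggtgAggggA
Chtop A812: cctgaatggcAttcttgggcc
Eif5 C295: cAgtcccgggCgagccgcgtt
Smad6 A327: gctctttgggAtttttttttt

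Of these 8 nucleotides, 7 had G directly on the 5′ side, and the exception was Chtop A812, which follows a C. The base after Smad6 A327 opens a long run of U, a setting described further on. The next sequences are those of nucleotides whose level changed most between refolded RNA and cells, the rises first. Tle4 C601 and Ppp2r5e C156 lie near the start of the read part of their amplicons, so their lines are shorter.
Kdm2a C384: ggccgggcggCgcggggagcg
Ext1 A312: cagctgcaagAtgcactAgcc
Hipk3 A296: aaggaagatgAgggagaCggg
Mbd5 A904: tccagtatcaAggttcaaggc
Tle4 C601: gcccgcCgccctcagtg
Ppp2r5e C156: CCctccccgcg

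Across the 502 nucleotides the median level was 16463 ± 735 CPM in ATP-depleted cells, 16404 ± 630 in untreated cells and 21014 ± 583 in refolded RNA (SD of sample medians, n = 3). The 3 ATP-depleted medians were 16896, 15615 and 16879 CPM and the 3 untreated ones 16777, 15676 and 16759, so the in-cell groups overlapped. The refolded medians of 20857, 21658 and 20525 CPM all lay above them. Over other A rows the medians were 8252 ± 386, 8362 ± 382 and 9001 ± 195 CPM in the same order of groups, and over other C rows 4507 ± 78.1, 4743 ± 52.2 and 4004 ± 43.7. The highly reactive A and the highly reactive C had near levels, with untreated medians of 16029 ± 740 and 17048 ± 362 CPM. These nucleotides held 8.63 ± 0.154% of all A and C signal in ATP-depleted cells, 8.27 ± 0.0820% in untreated cells and 9.62 ± 0.116% in refolded RNA. Reactivity is relative to the counts of the amplicon in that sample, so a rise at 1 base lowers the share of others.

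**Figure D1:**
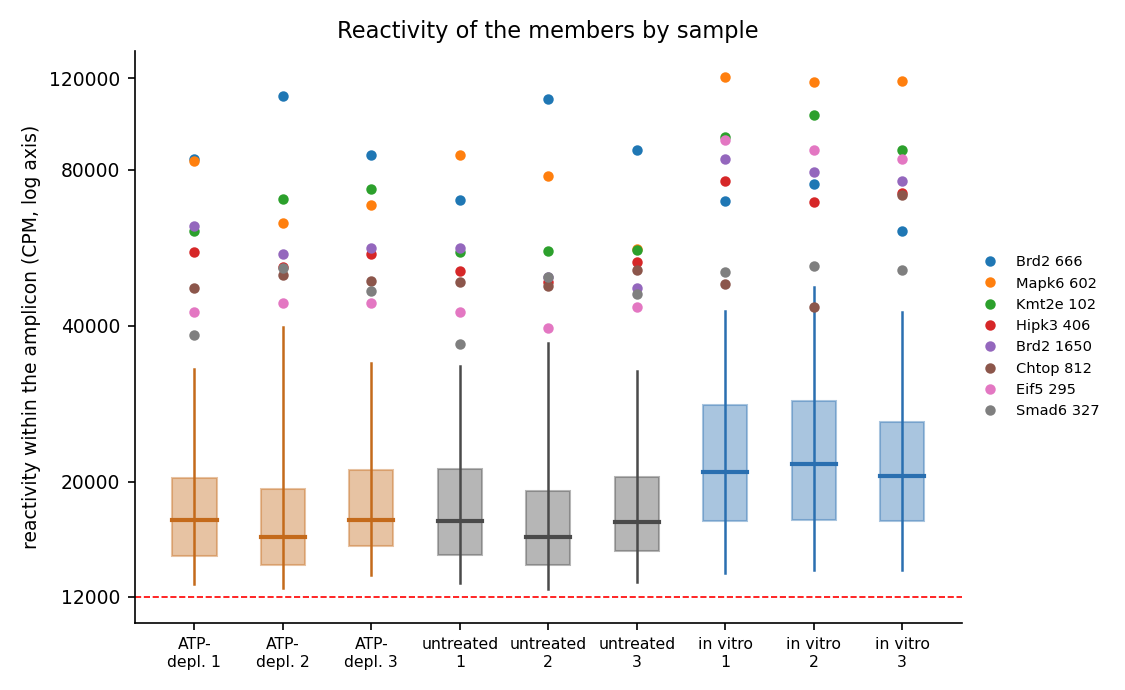
Reactivity in CPM within the amplicon (log axis) of the 502 highly reactive nucleotides (members in the plots) in each of the 9 samples, with the line at the median, the box from percentile 25 to 75 and the whisker from percentile 5 to 95; the dashed line is the rule at 12000 CPM. Points show the 8 named nucleotides, and the 3 refolded samples have higher medians, at 20525 to 21658 CPM, than the 6 in-cell samples, at 15615 to 16896 CPM.

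Most of the 502 lay close to the rule. In all 9 samples 53 stayed at or above 20000 CPM (32 A and 21 C) and 14 at or above 30000 CPM (8 A and 6 C). Just inside were Mbd5 C926, Srgap2 C494 and Ddx17 A694, with lowest values of 12005, 12012 and 12020 CPM. Just outside were Ext1 A139, Taok2 A615 and Ext1 A35, with 11984, 11982 and 11963 CPM in their lowest sample and higher values in the other 8. In all, 278 further rows reached 12000 CPM in 8 samples, and 9866 did so in none. The sample that kept such a row out was most often the second ATP-depleted one (49 rows) or the second untreated one (45 rows), and least often the third refolded one (8 rows). All 3 refolded samples reached the rule at 1731 rows, of which 29.0% were among the 502, against 942 rows for untreated cells (53.3%) and 953 for ATP-depleted cells (52.7%).

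Brd2 encodes a bromodomain protein that binds acetylated histones, and its C666 had the highest lowest value. It read 83852, 111124 and 85269 CPM in ATP-depleted cells, 69799, 109408 and 87261 in untreated cells, and 69745, 75159 and 61044 in refolded RNA. The in-cell groups overlapped, as did refolded RNA and untreated cells, whose difference was -0.34 log2 (limma, adjusted p = 0.245). All 3 refolded values lay below all ATP-depleted ones, and that difference of -0.42 log2 did not pass either (limma, adjusted p = 0.162). Mapk6 encodes an atypical mitogen-activated protein kinase. Its A602 read 83267, 63216 and 68429 CPM, then 85463, 77732 and 56204, then 120933, 118196 and 118530, in the same order. The 3 refolded samples were above all in-cell ones, by 0.70 log2 over untreated cells (limma, adjusted p = 0.0245).

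Kmt2e encodes a SET-domain chromatin protein. At A102 it read 60970, 70167 and 73529 CPM in ATP-depleted cells, 55505, 55702 and 55945 in untreated cells, and 92736, 102122 and 87356 in refolded RNA. Refolded samples were again highest, by 0.72 log2 over untreated cells (limma, adjusted p = 0.00417). Hipk3 A406, in the leader of a homeodomain-interacting protein kinase, read 55562, 51986 and 55103 CPM, 51039, 48481 and 53114 CPM, and 76195, 69403 and 72026 CPM. That was 0.49 log2 higher in refolded RNA than in untreated cells (limma, adjusted p = 0.00951). A second amplicon, which starts 1 nt upstream, read the same base at 47782 to 55114 CPM in cells and 63290 to 67999 CPM after refolding.

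The remaining 2 C among the 8 also rose on refolding. Brd2 C1650 read 62177, 55097 and 56591 CPM in ATP-depleted cells, 56634, 49602 and 47306 in untreated cells, and 83850, 79121 and 76127 in refolded RNA (0.61 log2 over untreated, limma adjusted p = 0.00708). In its other amplicon the same C read lower, at 25884 to 32229 CPM in cells and 41471 to 42747 after refolding, with the same order of groups. Eif5 encodes the initiation factor that triggers GTP hydrolysis at the start codon. Its C295 read 42612, 44356 and 44181 CPM, 42520, 39560 and 43410 CPM, and 91250, 87477 and 83931 CPM. The level after refolding was 1.01 log2 above untreated cells (limma, adjusted p = 0.000633), the largest change among the 8.

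The change did not pass at the other pair. Chtop, a chromatin protein that also acts in mRNA export, had at A812 47262, 50044 and 48810 CPM, 48675, 47777 and 51327 CPM, and 48183, 43553 and 71360 CPM (0.10 log2, limma adjusted p = 0.716). The thinnest library of this amplicon held 1132 counts, and the lowest count at this base in any sample was 52. Smad6, an inhibitory SMAD of bone morphogenetic protein signalling, had at A327 38313, 51769 and 46657 CPM, 36912, 49620 and 46140 CPM, and 50728, 52127 and 51188 CPM (0.21 log2, limma adjusted p = 0.349). At Smad6 A327 the 3 refolded values were above all untreated ones, and at Chtop A812 the groups overlapped.

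Adenine was the more frequent base. Of the 502 nucleotides 324 were A (64.5%) and 178 C (35.5%), whereas 41.5% of other A and C rows were A. Put the other way, 4.74% of 6840 A rows and 1.90% of 9347 C rows were highly reactive.

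The neighbours differed too, and differently for A and C. Highly reactive A had G on the 5′ side in 50.6% of cases, against 31.5% for other A, and G on the 3′ side in 52.1%, against 34.6%. They had A on the 5′ side in 11.7%, against 27.6%, and U on the 3′ side in 6.62%, against 17.2%. Highly reactive C had A on the 5′ side in 35.2%, against 15.0% for other C, C there in 17.6%, against 32.9%, and G on the 3′ side in 37.9%, against 22.0%. Both bases thus shared the 3′ G, but on the 5′ side A was most often preceded by G, and C was preceded about as often by A as by G (35.2% and 34.1%). For C the 5′ G was close to its share among other C, 31.6%.

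**Figure D2:**
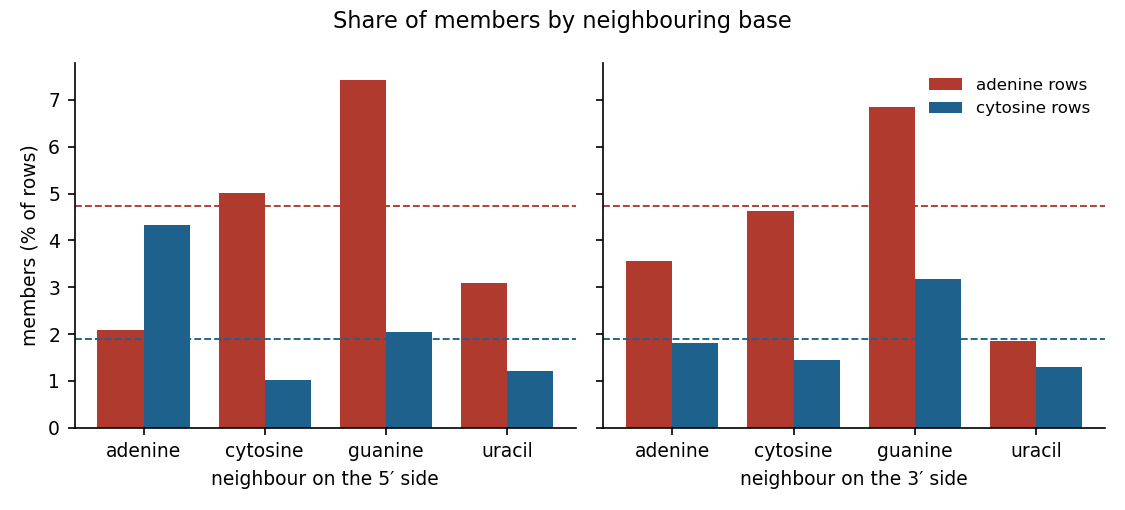
Share of A rows and C rows (%, axis from 0) that were highly reactive, by the base on the 5′ side (left) and on the 3′ side (right); dashed lines are the shares over all A rows (4.74%) and all C rows (1.90%). A after or before G stands highest, at 7.41% and 6.85%, and C is highest after A, at 4.34%.

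By triplet, with the described base in the middle, GAG held the most: 85 of 806 such A were highly reactive (10.5%), which is 26.2% of all highly reactive A. GAA followed with 40 of 601 (6.66%) and CAG with 47 of 757 (6.21%). For C the highest share was that of ACG, with 18 of 227 (7.93%). At the low end none of 272 A in AAU met the rule, and 1 of 375 C in UCA (0.267%), 7 of 592 A in AAA (1.18%) and 8 of 948 C in CCC (0.844%) did. The A of AUG, the start-codon triplet, was highly reactive in 3 of 314 cases (0.955%), beside 21 of 1139 (1.84%) for any A before U. These shares describe sequence and rest on rows that share amplicons, and no test was made of them.

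Bases standing alone were more often highly reactive than bases in a run of their own kind. The share was 6.03% for A with no A beside it and 3.51% for A in a pair, and 2.62% and 1.14% for C. Within runs of A the first base reached 4.70%, inner bases 1.18% and the last base 2.51%. A second G on the same side did not move the share in a single direction: 6.99% of A after GG and 8.60% of A before GG met the rule. Any A after or before G, with GG included, had 7.41% and 6.85%. With G on both sides the share was 10.5%.

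Long runs of another base directly 3′ of a nucleotide formed a separate setting. When a run of 6 or more followed, 8 of 22 A (36.4%) and 7 of 20 C (35.0%) were highly reactive, against 4.41% and 1.91% when a single other base followed. Of these 15 nucleotides 11 preceded a run of U, out of 21 A and C rows that did so, and none preceded a run of G, out of 12. The same setting held 11 of the 15 G that reached the rule, a base that DMS is not meant to mark: 11 of 18 G before such runs had 12000 CPM or more in all 9 samples, and none of 4631 before a single other base. Smad6 A327 belongs to this group. A further 6 of the 502 lay inside a run of 6 or more and 13 at the first or last position read, 11 of them at the last, out of 79 A and C rows there. The other 468 were in none of these places, and the part of long runs and read ends in the levels was not tested.

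Predicted structure was taken from the sequence alone, with no probing data, by folding the read part of each amplicon at 37 °C. Amplicon ends outside the read part were not in the fold. Highly reactive A had a median probability of being unpaired of 0.937, against 0.722 for other A, and highly reactive C 0.788, against 0.228 for other C. The difference was thus larger for C. Among highly reactive A 77.2% had a probability of 0.5 or more, against 60.5%, and among C 61.8%, against 36.2%. In the predicted lowest-energy fold, 37.0% of the A and 27.0% of the C lay in bulges or internal loops, against 23.9% and 15.1% of other rows. For C hairpin loops were also more frequent, 19.1% against 10.0%, while for A they were close, 17.3% against 16.2%. Inside stems the shares were 13.3% against 23.0% for A, and 16.9% against 31.1% for C.

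Prediction and reactivity did not match everywhere. Of the highly reactive nucleotides, 18 A (5.56%) and 29 C (16.3%) had a predicted probability under 0.1. Among the 8 named above, 4 had a probability of 0.5 or more: Brd2 C666 (0.969), Kmt2e A102 (1.000), Hipk3 A406 (1.000) and Eif5 C295 (0.999). Mapk6 A602 was predicted paired at the end of a stem (0.027), Chtop A812 likewise (0.257), and Smad6 A327 inside one (0.011). Brd2 C1650 had 0.084 when folded in 1 amplicon and 0.983 when folded in the other, so for this base the prediction turned on where the amplicon was taken to end.

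**Figure D3:**
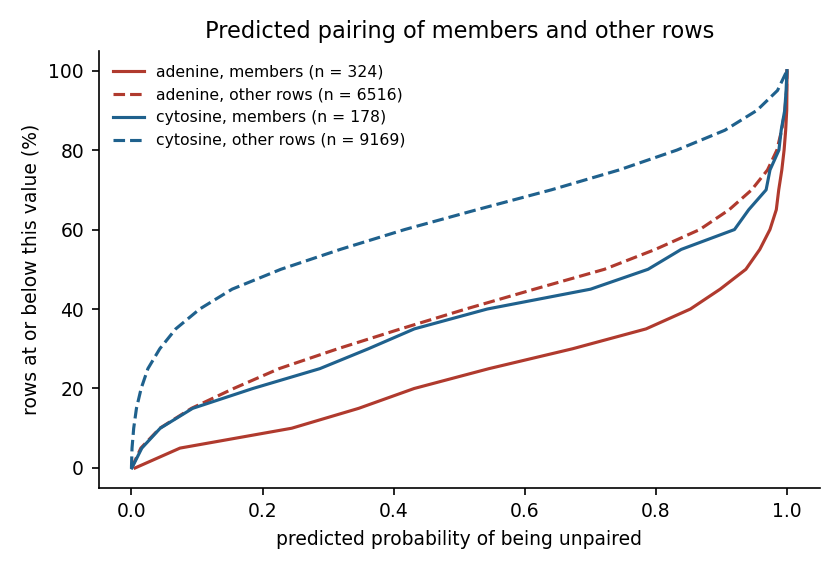
Cumulative share of rows (%) by predicted probability of being unpaired (0 to 1), for highly reactive A (n = 324) and C (n = 178) as solid lines and for other A (n = 6516) and C (n = 9169) as dashed lines. Each solid line lies to the right of its dashed line, and the gap is wider for C (medians 0.788 and 0.228) than for A (0.937 and 0.722).

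Along the leaders these nucleotides mostly stood singly but not far apart. No more than 2 followed each other: 446 had no highly reactive neighbour and 56 formed 28 pairs. Another highly reactive nucleotide stood directly beside 11.2% of them, against 2.37% of other A and C rows, within 3 nt of 20.9%, against 7.87%, and within 10 nt of 39.6%, against 21.8%. The share directly beside another moved with the threshold, from 18.9% of 1172 nucleotides at 10000 CPM to 2.5% of 160 at 15000 CPM. Of 209 A or C directly downstream of one, 28 (13.4%) were themselves highly reactive, and at a distance of 2 nt 6.37%. From there on the share moved between 2.29% (5 nt) and 8.61% (12 nt), with no smooth trend, while downstream of other rows it stayed between 2.48% and 3.33%. At 40 nt it was still 4.21%, against 2.87%. Single amplicons held from 0 to 12.9% highly reactive A and C rows. The part of this difference between amplicons in the contrasts above was not tested. Neighbouring bases that did not meet the rule themselves were not compared apart. Over all neighbours, an A on the 3′ side had a median of 11845 CPM, against 8651 beside other rows, a C 7621 against 4565, a U 7826 against 3705, and a G 1168 against 1180.

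**Figure D4:**
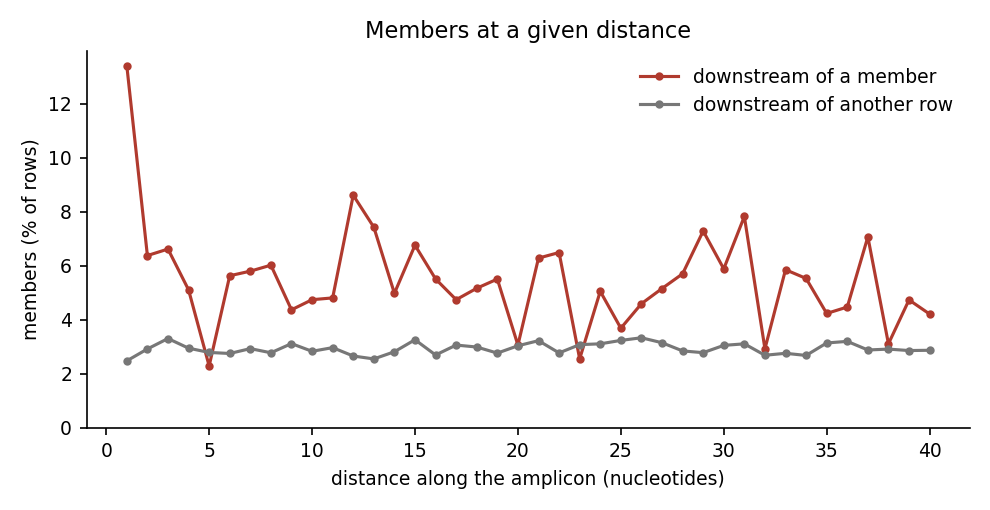
Share (%, axis from 0) of A and C rows that were highly reactive, by distance in nucleotides downstream of a highly reactive nucleotide or of another A or C row in the same amplicon. The share was 13.4% at 1 nt and 2.29% at 5 nt, and the grey line for other rows stayed at 2.48 to 3.33%.

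The 3 pairs with the highest levels show the range. In the Cnot3 leader, whose product is a subunit of the CCR4-NOT deadenylase complex, A217 and A218 open a run of 18 A. This pair therefore belongs to the nucleotides inside long runs described above. The G directly before it, G216, was itself at 20137 CPM or more in all 9 samples of this amplicon. The values of the 3 groups overlapped at both A in the amplicon shown. A217 read 29112, 41554 and 31493 CPM, 28955, 33787 and 27400 CPM, and 35454, 34105 and 30818 CPM. Ppm1b A291 and A292, in the leader of a protein phosphatase, follow GGCG and precede GCGG. Eed, a core subunit of the polycomb complex that methylates histones, has the A and C next to each other at 392 and 393. Capitals again mark the highly reactive nucleotides.
Cnot3 A217: aggaaagaggAAaaaaaaaaa
Ppm1b A291: cccgagggcgAAgcggcggcg
Eed A392: ggcgtgcttgACggcggtgtg

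Eed A392 read 18884, 16716 and 16567 CPM, 17743, 15602 and 17773 CPM, and 17426, 20927 and 18553 CPM. Its C393 read 19141, 20189 and 22903 CPM, 23293, 21775 and 19668 CPM, and 21601, 16899 and 14521 CPM. At both Eed bases the groups overlapped. The same held for Ppm1b A291, which varied most among replicates, from 15241 to 43761 CPM within refolded RNA, in amplicon libraries of as few as 1613 counts.

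By broad position the share differed less than at the last position read, where 11 of 79 A and C met the rule. At the first position read 2 of 79 did. When the read part of each amplicon was cut into 5 equal stretches, from 5′ to 3′, 3.42, 2.91, 2.59, 2.88 and 3.70% of A and C rows were highly reactive. By transcript position the share was 2.86% before position 100, 3.63% from 100 to 299, 2.57% from 300 to 599 and 3.25% from 600 on.

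Amplicons poor in A and C held a larger share. When the 161 amplicons were ordered by the share of A and C among read bases, 4.14% of A and C rows were highly reactive in the 54 amplicons lowest in A and C, 3.33% in the middle 53 and 2.11% in the highest 54. Across amplicons the relation had r = -0.31 and rho = -0.34 (n = 161, a description, over amplicons that partly overlap). Against the share of A among A and C it had r = -0.34 and rho = -0.40, so amplicons with more A in place of C held a smaller share, although single A met the rule more often than C. The signal of an amplicon is relative to its own counts and shared among its bases, and the part of this in the relation was not tested. When each amplicon was divided by its own A and C mean, 549 nucleotides met the matching rule.

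Among transcripts the leader of Brd2 held the most, with 41 of 555 A and C positions (7.39%), and Hipk3, with 16 of 209, and Mapk6, with 16 of 280, were also among those with the most. The highest shares, among transcripts with at least 50 such positions, were those of Ints6, a subunit of the Integrator complex, with 13 of 101 (12.9%), the channel kinase Trpm7 with 12 of 105 (11.4%) and the activin receptor Acvr2a with 8 of 79 (10.1%). In Ints6 7 of the 13 were A, and in Trpm7 11 of the 12. No highly reactive nucleotide was found in Bcl2 (96 positions), E2f3 (115), Flrt3 (94), N4bp2 (91) or Nlk (72). Of these the Flrt3 amplicon had as few as 711 counts in a sample and N4bp2 2917, so a value can cross the rule by counting error there.

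Depth behind the values varied. The lowest count of a highly reactive nucleotide in any sample had a median of 403.5 and a minimum of 3, and it was under 50 for 58 of them. In all, 102 of the 502 lay in amplicons with under 5000 counts in some sample, which held 4681 A and C rows. Even so, the highest sample was a median of 1.74 times the lowest, against 2.69 times over the 14802 other rows with counts in every sample; a rule that needs all 9 values to be high also limits this ratio.

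Overlapping amplicons gave a reading that the rule had not used for a given row. For 178 of the 502 the same position was read in another amplicon of the same samples. That reading was itself 12000 CPM or more in all 9 samples for 78 (43.8%), against 100 of 5096 other A and C rows (1.96%). Rows were counted from each side, so a position high in both amplicons entered 2 times among the 78. The share of distinct positions that held in both was therefore lower than 43.8%. The 100 other rows were the partner readings of those of the 178 that did not hold, so the 2 shares are not independent. Its median over samples was 12000 CPM or more for 143 (80.3%), against 482 (9.46%), and in single samples the share lay between 65.2% and 83.7%. The second readings had a median of 15066 CPM, against 6233 for other rows. Without the 4 pairs of amplicons whose starts were under 10 nt apart, 62 of 152 (40.8%) held in all 9 samples and 117 (77.0%) by the median.

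A few bases differed strongly between their readings. Ext1 C235 read 23516, 13146 and 22640 CPM, 26652, 20894 and 17322 CPM, and 27265, 33450 and 29899 CPM at the last position of 1 amplicon. In the other amplicon it had a median of 3337 CPM. Cnot3 C205 read 12762 to 27607 CPM in 1 amplicon and a median of 4586 CPM in the other. Tle4 A685 read 13576 to 32114 CPM, and a median of 6223 CPM in the other, in libraries of as few as 682 counts.

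The groups were compared by limma on log2(CPM + 3196.78), fitted over all tested A and C rows. The comparisons share samples, and the counts carry no weight as evidence about the highly reactive nucleotides, since these were chosen on the same values. Refolded RNA differed from untreated cells at 122 of the 502 (24.3%), 116 higher and 6 lower. Over all 16178 rows tested 16.3% were called, 8.08% higher and 8.18% lower. The median change was 0.26 log2 over the 502, and 427 of the 502 changes were above 0. It was 0.0047 over all rows and 0.13 over rows at or above the median mean level. By base it was 0.26 over the highly reactive A and 0.10 over all A, and 0.24 and -0.07 over C. When each amplicon was divided by its A and C mean, it was 0.14 over the 502 and -0.07 over all rows. Over the 324 A, 79 were higher and none lower, and over the 178 C, 37 were higher and 6 lower. Of all 6836 A tested, 681 were higher and 277 lower (14.0% called), and of all 9342 C, 626 and 1047 (17.9%). With untreated sample 2 or 3 left out, 57 and 74 of the 502 were called (11.4% and 14.7%), beside 8.62% and 9.35% of all rows.

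Against ATP-depleted cells 122 were also called, 115 higher and 7 lower, beside 14.9% of all rows, 8.31% higher and 6.56% lower. When each amplicon was first divided by its A and C mean, 57 were higher and 12 lower (13.7% of the 502 called, beside 14.3% of all rows), so the larger share of calls was not seen on that scale. Against untreated cells the same scale gave 76 higher and 10 lower (17.1%, beside 15.9% of all rows). Without ATP-depleted sample 1, 2 or 3 there were 62, 47 and 64 calls, beside 8.47%, 6.22% and 7.70% of all rows. In all, 105 of the 502 were called against both in-cell groups (20.9%), 99 of them higher and 6 lower, beside 11.7% of all rows, 6.37% higher and 5.37% lower. Both comparisons use the same refolded samples.

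Between ATP-depleted and untreated cells limma called none of the 502 and 0% of all rows (smallest adjusted p = 0.999943 among the 502). At an unadjusted p under 0.05 there were 9 (1.79%), against 3.93% of all rows. The changes had a median of 0.01 log2 and ran from -0.56 to 0.93, with a median standard error of 0.14. At this replication smaller changes were not detectable, and equal reactivity was not shown.

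**Figure D5:**
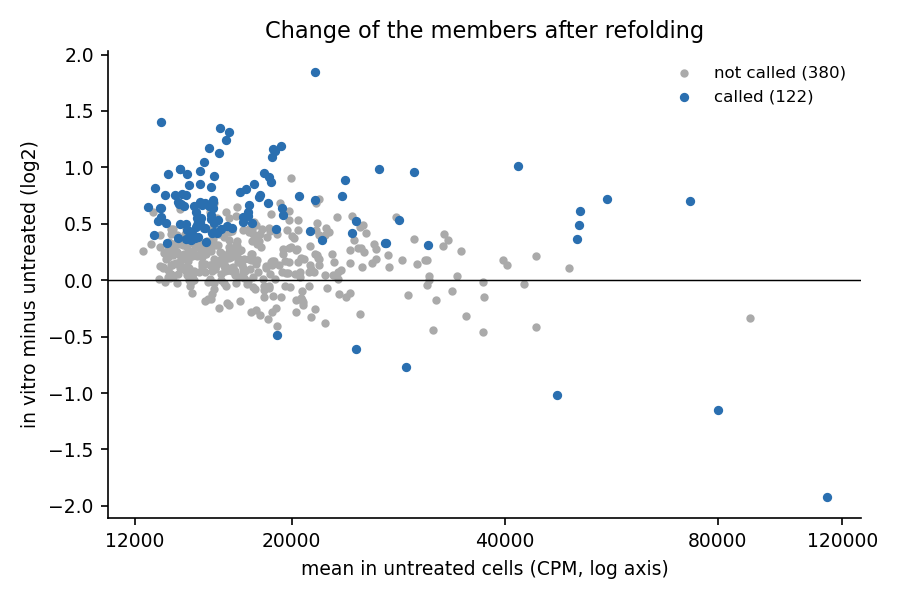
Change from untreated cells to refolded RNA (log2 of CPM + 3196.78) against the mean in untreated cells (CPM, log axis) for the 502 highly reactive nucleotides, with the 122 called by limma in blue. Of these 116 lie above 0 and 6 below, and the 3 lowest points had the changes of -1.92, -1.15 and -1.01 log2.

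The largest rises were at nucleotides of moderate level in cells. Kdm2a encodes a histone lysine demethylase. Its C384, 16 nt from the last position read, went from 24540, 16729 and 23424 CPM in untreated cells and 19619, 33048 and 19255 in ATP-depleted cells to 101016, 73251 and 82480 in refolded RNA. The groups did not overlap in these libraries of as few as 1976 counts, and the change was 1.85 ± 0.22 log2 over untreated cells (SE, limma adjusted p = 0.00217) and 1.73 over ATP-depleted cells (limma adjusted p = 0.00273). Ext1 encodes a glycosyltransferase that builds heparan sulfate. Its A312, the A of an AUG triplet, read 12801, 13595 and 13459 CPM, 12654, 13603 and 12968 CPM, and 38576, 44257 and 37188 CPM. The groups did not overlap, at 1.41 ± 0.10 log2 over untreated cells (SE, limma adjusted p = 0.000223).

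Hipk3 A296 read 28748, 18291 and 26244 CPM in ATP-depleted cells, 17576, 12042 and 17841 in untreated cells, and 40130, 52951 and 41985 in refolded RNA. Its rise was 1.35 ± 0.20 log2 over untreated cells and 0.81 over ATP-depleted cells (limma, adjusted p = 0.00417 and 0.0278). Mbd5 encodes a methyl-CpG-binding-domain protein. Its A904 read 13692, 14200 and 17358 CPM, 19358, 13653 and 15464 CPM, and 39013, 45938 and 42384 CPM. It rose by 1.25 log2 over untreated and 1.32 over ATP-depleted cells (limma, adjusted p = 0.00143 and 0.00114).

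The 6 nucleotides called lower in refolded RNA than in untreated cells were all C, and 3 lay within 6 nt of the first position read, in thin libraries. Tle4 encodes a Groucho-family corepressor. Its C601 read 103239, 110347 and 96675 CPM in ATP-depleted cells, 121458, 114136 and 106773 in untreated cells, and 26362, 37816 and 21382 in refolded RNA. It fell by 1.92 log2 (limma, adjusted p = 0.000727), in libraries of as few as 484 counts. The second Tle4 amplicon, in which this C is 93 nt from the first position read, was also lower after refolding, at 907, 1866 and 2966 CPM against 17287 to 26202 CPM in cells. That amplicon was thin too, with libraries of as few as 682 counts. There the ATP-depleted values of 26202, 25268 and 25112 CPM lay above the untreated ones of 17287, 21415 and 19842 CPM, whereas in the first amplicon the ATP-depleted mean was the lower of the in-cell means.

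Fam13b C21 read 73700, 101261 and 78219 CPM, 73786, 92512 and 74197 CPM, and 54958, 23673 and 29920 CPM. It fell by 1.15 log2 (limma, adjusted p = 0.0247), a call that was lost under 7 alternatives, such as leaving out any 1 untreated sample. Ppp2r5e, a regulatory subunit of a protein phosphatase, had at C156, the first position read, 37502, 60724 and 59163 CPM, 51590, 41697 and 49122 CPM, and 23479, 24153 and 18219 CPM (-1.01 log2, limma adjusted p = 0.0116). Library depth and read position moved with these 3 falls, and their part was not tested.

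The other 3 falls were far from read ends and in deep libraries. Ddx17 encodes a DEAD-box RNA helicase. Its C805 read 32273, 29242 and 30576 CPM, 28514, 29073 and 29485 CPM, and 14963, 15779 and 16463 CPM, a fall by 0.77 log2 (limma, adjusted p = 0.00149). In the overlapping amplicon the change was -0.46 log2 and did not pass (limma, adjusted p = 0.111). Ddx17 C788 read 27128, 25304 and 25906 CPM, 24405, 23377 and 26113 CPM, and 14893, 14043 and 16070 CPM, a change of -0.61 log2, against -0.33 in the overlapping amplicon (limma, adjusted p = 0.00449 and 0.236). Chd2, a chromodomain helicase, had at C130 a change of -0.48 log2 in 1 amplicon and -0.31 in the other (limma, adjusted p = 0.0191 and 0.119). For all 3 the second reading went the same way without passing. These 6 were also the falls against ATP-depleted cells, together with an A, Smad6 A973. It read 22595, 18066 and 22615 CPM in ATP-depleted cells, 16575, 13468 and 13076 in untreated cells, and 13008, 13389 and 14717 in refolded RNA. The change was -0.52 log2 against ATP-depleted cells and -0.05 against untreated cells (limma, adjusted p = 0.0261 and 0.815).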

How the data were processed

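The deposited table gives 1 log2 value per nucleotide, amplicon and sample, made by the authors; bcl2fastq, Bowtie2 and limma are named in the submitters' processing notes, with no versions or roles. Within 1449 of 1449 libraries (amplicon by sample) the values were log2 CPM of whole numbers plus 0.5, at a tolerance of 0.0001. These numbers are taken as mutation counts. The scale of a library was not always its summed count, so totals in CPM can differ between libraries. Depth was 5743965 to 12616275 counts per sample and 96 to 624295 per library (median 40815), from amplified cDNA, so counting error is a lower limit. Correlations between samples ran from 0.642 to 0.905.

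CPM was 2 to the power of the deposited value. The model, in limma 3.58.1 (R 4.3.3), took the 9 samples and 16178 rows with counts, on log2(CPM + 3196.78), 0.5 times the A and C median. Tests were two-sided with Benjamini-Hochberg adjustment at 0.05. ViennaRNA 2.7.2 gave unpaired probabilities at 37 °C; Python 3.11.15, pandas 2.3.3, scipy 1.17.1 and matplotlib 3.10.9 did the rest. Everything except the group comparisons is a count, share or median with no test.

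Named nucleotides, at most 1 row per position, were the 8 with the highest lowest value (at most 2 per transcript), the 3 highest C, the 3 just inside and outside the rule, the 3 largest rises and falls per comparison without overlap of groups, the 3 highest runs, the 3 with the lowest second reading, and transcripts by count and share. Ddx17 C805, Ddx17 C788, Chd2 C130 and Smad6 A973 complete the falls and were named after their values were seen, as was Mapk6 among transcripts. The nucleotides and lists were chosen with earlier results of these data known.

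Whether equal replicate numbers pair samples was checked by correlating deviations from group means. The correlation was -0.018 to 0.100 for 9 pairs with the same number and -0.054 to 0.015 for 18 others. Between ATP-depleted and untreated samples alone, it was 0.041, 0.100 and 0.031 for equal numbers and -0.054 to 0.00082 for the others. In cells equal numbers thus moved together weakly. No label ties the samples, so they were not paired in the main model. No sequence is shown for Fam13b. One transcript that the naming rule selects is not reported here.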

Additional observations from a re-analysis of the deposited data

Results flagged for a closer look

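G and U were outside the comparisons. Of them, 26 rows were at 12000 CPM or more in all 9 samples: 15 of 9692 G (0.155%) and 11 of 7088 U (0.155%). Each had at least 36 counts in every sample, above the 3 counts that a count of 0 allows. Of the 15 G, 11 lay directly 5′ of a run of 6 or more identical bases, as did 6 of the 11 U. No sample without DMS was analysed here against which to set them.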

How the results depend on the processing

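The number of highly reactive nucleotides depended on the threshold: 1172 at 10000 CPM and 160 at 15000 CPM, with 69.4% and 60% A, and with 18.9% and 2.5% directly beside another. Leaving out each sample in turn gave 510 to 551 nucleotides, 64.1 to 65.4% A and 11.0 to 12.7% beside another. Folding windows of 100 nt gave a median unpaired probability of 0.963 for A, and the 15000 CPM threshold gave 0.891 for C; without each sample in turn the medians were 0.926 to 0.943 for A and 0.774 to 0.805 for C. The second reading met the rule by its median for 80.3%. Rows in or before long runs and at read ends were left out in an alternative chosen after seeing the data. It kept 468 nucleotides and 121 calls in both in vitro comparisons. No share over all rows is given beside those calls, so they carry no weight about the highly reactive nucleotides. Refolded RNA against untreated cells gave 61 calls from the 6 samples compared (12.2%, beside 8.23% of all rows). It gave 74 of A alone (22.8%, beside 13.2%) and 44 of C alone (24.7%, beside 18.7%). Without each sample in turn it gave 57 to 111 calls (11.4 to 22.1%, beside 8.62 to 15.4% of all rows). Against ATP-depleted cells there were 78 calls on the deposited log2 scale (15.5%, beside 13.8% of all rows) and 72 from the 6 samples compared (14.3%, beside 9.91%). There were 69 after division by the amplicon mean (13.7%, beside 14.3%), 79 of A alone (24.4%, beside 12.6%) and 42 of C alone (23.6%, beside 16.6%). Without each sample in turn there were 47 to 112 (9.36 to 22.3%, beside 6.22 to 14.7% of all rows). The ATP-depletion comparison gave 0 under all alternatives run. A replicate block was fitted although no label pairs the samples by number. It gave 107 and 103 calls in vitro against untreated and ATP-depleted cells (21.3% and 20.5%, beside 13.5% and 12.3% of all rows). For ATP depletion it gave 0. Of 12 named changes 10 were called under every alternative run; Fam13b C21 accounts for the other 2. The cause of these shifts was not tested, other than fewer samples or rows where the alternative itself has fewer. Depth limits nucleotides of thin libraries most, and only relative reactivity was measured.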
